A study of Mus musculus with 62 samples.

Results

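A set of 10 genes of the postsynaptic scaffold were followed through ethanol exposure in the mouse brain, namely Shank1, Shank2, Shank3, Dlgap1, Dlgap2, Dlgap3, Dlgap4, Dlg2, Dlg3 and Dlg4. They are 10 of the 56415 genes in the deposited count table, matched by gene name, and the annotation gives them 122 isoforms, of which 76 are protein-coding. The genes were chosen by name, and they were chosen with results of these data already known: Shank3 and a list of scaffold genes had been seen to be lower in the ventral hippocampus after chronic ethanol. That contrast, and the interaction that shares its libraries, are therefore given below as a description, with no p-value or FDR of a member. Nothing is read from the counts of calls there, which for the main fits are printed beside the share of all genes.

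The mice were adult males of the strain C57BL/6J, aged 8–10 weeks, and received ethanol at 2 g/kg in saline, or the same volume of saline, by intraperitoneal injection. Mice were given 1 injection (acute) or 1 injection daily for 10 d (chronic). Tissue was taken 4 h after the last of these. Poly(A) RNA was sequenced from cortex (CTX), from the dorsal (dHPC) and ventral (vHPC) parts of the hippocampus and from the dorsal (DS) and ventral (VS) parts of the striatum, cored from frozen coronal slices. The 5 regions, 2 paradigms and 2 treatments make 20 groups of 3 or 4 libraries, 62 in all from 16 mice, and within a region each library is a different mouse. No group carries a transgene or deletion, and acute and chronic mice were different animals with separate saline controls.

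At an excitatory synapse the receptors of the dendritic spine are held in place by layered scaffold proteins. Dlg proteins lie nearest to the membrane and bind glutamate receptors and adhesion molecules, Dlgap proteins bind the Dlg proteins from below, and Shank proteins bind the Dlgap proteins and reach down to Homer proteins and the actin skeleton. Mutations in SHANK, DLGAP and DLG genes are known from autism, intellectual disability and compulsive behaviour, and the striatum is known for its particular dependence on Shank3 and Dlgap3.

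All 10 genes lie on the plus strand of GRCm39, and positions are those of the gene entries in the count table's annotation. Some isoforms run past these ends, such as Dlg4-215 to chr11:69938348 and Dlgap2-203 to chr8:14897680. Among the Shank genes, the master scaffolds, Shank1 (ENSMUSG00000038738) lies at chr7:43959677-44009996, Shank2 (ENSMUSG00000037541) at chr7:143555665-143978231 and Shank3 (ENSMUSG00000022623) at chr15:89383826-89444464. Among the Dlgap genes, the middle layer, Dlgap1 (ENSMUSG00000003279) lies at chr17:70276068-71128408, Dlgap2 (ENSMUSG00000047495) at chr8:14145865-14897108, Dlgap3 (ENSMUSG00000042388) at chr4:127062997-127130815 and Dlgap4 (ENSMUSG00000061689) at chr2:156455625-156606283. Among the Dlg genes, the membrane layer, Dlg2 (ENSMUSG00000052572) lies at chr7:90125880-92098455, Dlg3 (ENSMUSG00000000881) at chrX:99811328-99862012 and Dlg4 (ENSMUSG00000020886) at chr11:69907768-69935780. These are long transcripts: all 10 members have a summed exon length above the median of 3026 bases over the 28017 genes tested. Exon GC content ranged from 41.7% in Dlg2 to 62.3% in Shank3, and 8 of 10 members lay above the median of 48.6%. Exons of another gene overlap on the opposite strand for 7 of the 10 members, every Shank and Dlgap gene, and for none of the Dlg genes. The kit used for CTX and dHPC does not mark strand. Reads there that fall in the overlapping parts of these 7 genes cannot be told apart from those of their antisense partners. The extent of the overlap was not measured.

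Promoter sequence is shown for the pair of members whose levels ran most alike across libraries, Shank3 and Dlgap3, and for Dlgap1, the member with the smallest FDR of any ethanol contrast here. Each is the 250 bases before a RefSeq transcription start of GRCm38.p6 on the plus strand, and capitals mark the GC box GGGCGG read on either strand, a motif bound by Sp-family factors. The windows are chr15:89499358-89499607, chr4:127172630-127172879 and the upstream of 2 windows of Dlgap1, chr17:69968823-69969072.
Shank3: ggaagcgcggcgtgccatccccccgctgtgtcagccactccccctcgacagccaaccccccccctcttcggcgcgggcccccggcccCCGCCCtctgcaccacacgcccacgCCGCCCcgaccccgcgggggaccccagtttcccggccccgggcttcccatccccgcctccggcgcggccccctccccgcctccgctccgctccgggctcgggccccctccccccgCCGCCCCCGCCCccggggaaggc
Dlgap3: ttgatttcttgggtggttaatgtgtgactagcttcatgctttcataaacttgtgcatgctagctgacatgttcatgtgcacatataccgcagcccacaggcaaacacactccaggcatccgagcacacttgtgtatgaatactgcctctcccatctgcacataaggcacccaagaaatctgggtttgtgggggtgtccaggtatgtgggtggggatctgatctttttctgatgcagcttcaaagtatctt
Dlgap1: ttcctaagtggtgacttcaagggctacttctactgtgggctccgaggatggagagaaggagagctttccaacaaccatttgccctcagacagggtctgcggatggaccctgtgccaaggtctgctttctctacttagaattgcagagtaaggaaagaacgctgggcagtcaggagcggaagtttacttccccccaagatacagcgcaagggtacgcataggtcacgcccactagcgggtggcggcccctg
The Shank3 window holds 4 GC boxes and 31 CpG dinucleotides at a GC content of 82.4%, above 99.4% of the 32851 windows in the table. The Dlgap3 window holds 2 CpG dinucleotides and no GC box at 46.8% GC, and the Dlgap1 window 9 CpG dinucleotides and no GC box at 55.2%. Over all windows the median is 52.4% GC and 6 CpG dinucleotides, and 32.7% hold a GC box. The cAMP response element TGACGTCA, searched on both strands and present in 1.55% of all windows, is in none of the 13 windows of the 7 members that matched. Shank3 and Dlgap3 thus had unlike base composition upstream and closely matched levels across libraries.

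Library totals ran from 8149628 to 71164766 counts, with a median of 16066733, and the regions fall into 2 batches of kit and sequencing platform, CTX with dHPC and vHPC with DS and VS. Median totals were 51703961 for CTX and 48892266 for dHPC libraries, against 14530176 for vHPC, 13091491 for DS and 14524117 for VS. The DS chronic saline replicate 2 is empty on chromosomes 7, 8, 9, X, Y and MT, which puts 5 of the 10 members at 0, and it was left out. Marker genes followed the regional labels: the summed level of 9 striatal projection neuron markers was 2720–9380 CPM (read counts divided by the scaled library size) in DS and VS and 271–384 CPM in CTX, and that of 7 pallial excitatory neuron markers was 1180–2500 CPM in CTX, dHPC and vHPC and 10.4–803 CPM in DS and VS. Marker sums also differed between libraries of a region. The dHPC chronic saline replicate 5 had a striatal sum of 2770 CPM against 209 and 675 CPM in the other libraries of its group, and choroid plexus markers, 8 genes, spanned 27.2–3160 CPM in vHPC and 22.1–7250 CPM in DS. Other sums moved less: 6 pan-neuronal markers were 6610–7550 CPM in CTX and 3740–6620 CPM in the batch of vHPC, DS and VS, 5 interneuron markers 447–1470 CPM, 4 astrocyte markers 472–1080 CPM and 4 microglia markers 123–212 CPM over all libraries. Dentate granule markers, 4 genes, were 228–552 CPM in dHPC and 76.3–663 CPM in vHPC against 10.4–53.2 CPM elsewhere, 5 thalamic markers 35.8–794 CPM and 6 myelin markers 1140–9810 CPM. No defining marker was at 0 throughout its own region.

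All 10 scaffold genes were well expressed in saline mice of every region, but their regional patterns differed. Levels are given as CPM per kilobase of exon, mean ± SD over the saline libraries of both paradigms (n = 6 in each region, 5 in DS). CTX and dHPC form a batch and vHPC, DS and VS another, and levels were compared only within a batch. These are pieces of bulk tissue, in which fewer cells of a type and less RNA per cell cannot be told apart. Dlgap3 was the highest member within each region, at 92.6 ± 11.0 in CTX and 61.5 ± 8.14 in dHPC, and in the other batch at 103 ± 18.7 in DS, 83.2 ± 15.9 in VS and 81.3 ± 11.1 in vHPC. Of the 10 members, Shank1 had the largest ratio between the highest and the lowest regional mean in the batch of vHPC, DS and VS, while in the other batch it stood close to Shank2. Shank1 was at 52.7 ± 5.30 in CTX and 31.3 ± 3.26 in dHPC, and in the other batch at 59.3 ± 8.78 in vHPC, 16.6 ± 3.82 in VS and 11.0 ± 2.98 in DS. Dlgap1 was at 33.4 ± 1.56 in CTX and 28.9 ± 3.17 in dHPC, and at 33.4 ± 4.70 in vHPC but 11.9 ± 1.25 in DS and 11.6 ± 2.83 in VS. Shank2 was at 19.4 ± 1.84 in CTX and 11.9 ± 0.516 in dHPC, and at 19.6 ± 2.36 in vHPC, 9.91 ± 1.38 in VS and 8.36 ± 0.801 in DS. These 3 genes thus stood far lower in the striatum than in vHPC. Shank3 was more even, at 28.9 ± 2.94 in CTX and 28.4 ± 3.53 in dHPC, and at 40.1 ± 4.94 in vHPC, 34.3 ± 5.08 in DS and 30.1 ± 5.26 in VS. Dlg4, which encodes the main scaffold of the membrane layer, was at 44.9 ± 2.36 in CTX and 41.7 ± 2.30 in dHPC, and at 53.9 ± 8.97 in vHPC, 45.3 ± 3.59 in DS and 41.0 ± 3.90 in VS. In the batch of vHPC, DS and VS, Dlg3 lay between 28.0 ± 2.25 (DS) and 36.5 ± 6.55 (vHPC), Dlgap4 between 22.2 ± 1.77 (DS) and 32.5 ± 3.13 (vHPC), and Dlg2 between 18.3 ± 1.51 (vHPC) and 23.6 ± 2.33 (DS). In CTX and dHPC, Dlg3 was at 33.2 ± 1.34 and 36.4 ± 1.94, Dlgap4 at 32.1 ± 1.98 and 23.8 ± 1.01, and Dlg2 at up to 19.9 in a single CTX library and at a mean of 15.8 ± 0.955 in dHPC. Dlgap2, the lowest member within CTX, dHPC and vHPC, was at 13.9 ± 1.29, 10.2 ± 0.581 and 11.4 ± 2.62 there, and at 12.6 ± 1.76 in DS and 11.4 ± 2.14 in VS.

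**Figure D1:**
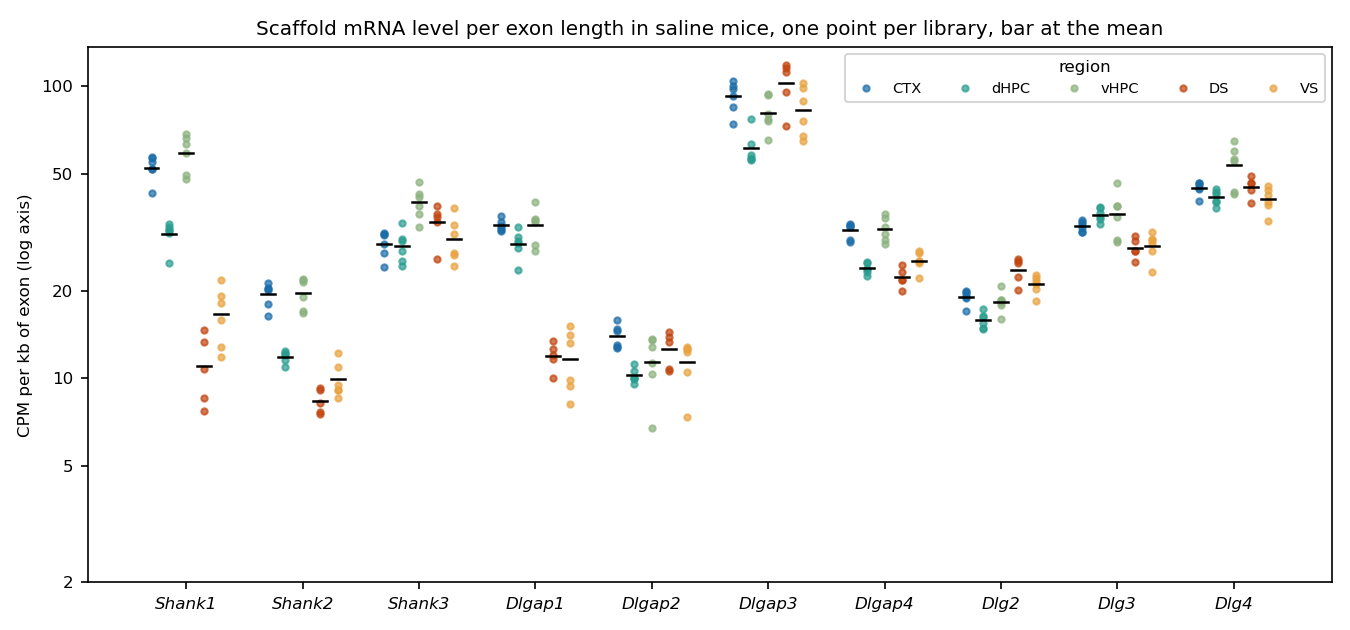
Level of each member in CPM per kilobase of exon, on a log axis, in the saline libraries of the 5 regions, each point a library and each black bar the mean. Shank1, Shank2 and Dlgap1 are far lower in both parts of the striatum than in vHPC. The means of Dlgap3 and Dlg2 are not lower there, and those of Shank3 are lower to a smaller extent.

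In DS against vHPC, edgeR's quasi-likelihood test called 5 members lower and 2 higher at an FDR under 0.1 (Benjamini–Hochberg over all genes), where 41.6% of all genes were called (42.3% with DESeq2, which called the same number of members). Shank1 was lower by a log2 difference of -2.44 (SE 0.173, edgeR FDR 1.92e-07), Dlgap1 by -1.47 (SE 0.104, FDR 1.80e-07) and Shank2 by -1.22 (SE 0.094, FDR 3.68e-07). Dlgap4 (-0.56) and Dlg3 (-0.35) were also lower, whereas Dlg2 (0.35) and Dlgap3 (0.31, FDR 0.0647) were higher in DS. Shank3, Dlg4 and Dlgap2 did not pass, with intervals of 2 SE from -0.46 to -0.01, -0.45 to -0.01 and -0.15 to 0.49. In VS against vHPC, 7 members were lower and 1 higher (39.1% of genes called, 40.0% with DESeq2), led by Shank1 (-1.83, FDR 4.62e-07), Dlgap1 (-1.52, FDR 3.56e-06) and Shank2 (-0.98, FDR 4.20e-06). Shank3 (-0.41), Dlg4 (-0.38), Dlgap4 (-0.36) and Dlg3 (-0.34) followed, Dlg2 was higher (0.20, FDR 0.0431), and Dlgap2 (-0.31 to 0.35) and Dlgap3 (-0.20 to 0.27) did not pass. Both contrasts use the same vHPC libraries. With each mouse as a replicate block, Dlg3 in VS against vHPC no longer passed (edgeR FDR 0.128, 0.00689–0.128 over the alternatives).

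Between the striatal parts, 3 members were lower in DS than in VS (9.88% of genes called, 13.0% with DESeq2): Shank1 by -0.63 (edgeR FDR 0.0495), Shank2 by -0.26 (FDR 0.0892) and Dlgap4 by -0.20 (FDR 0.0774). These calls are near the threshold, and leaving out acute saline replicate 4 or chronic saline replicate 6 of DS, or acute saline replicate 4 or 6 of VS, left 0 members called. Leaving out acute saline replicate 2 of DS, or chronic saline replicate 3 or 6 of VS, left 1. Over the 11 fits that left out a library, from 844 to 2303 of all genes were called. The other 7 members did not pass, with Dlgap3 at 0.29 (interval 0.00 to 0.58), Shank3 at 0.19 (interval -0.07 to 0.44), Dlg2 at 0.16, Dlg4 at 0.14, Dlgap2 at 0.12, Dlgap1 at 0.03 (interval -0.24 to 0.29) and Dlg3 at -0.04. In dHPC against CTX, 8 members were lower and 1 higher in dHPC, with 55.3% of all genes called (55.2% with DESeq2). Shank1 (-0.75, SE 0.069, FDR 4.46e-07), Shank2 (-0.71, SE 0.053, FDR 5.72e-08) and Dlgap3 (-0.59, FDR 8.13e-05) were lowest in dHPC relative to CTX. Dlgap2 (-0.45), Dlgap4 (-0.43), Dlg2 (-0.27), Dlgap1 (-0.21) and Dlg4 (-0.11) followed, and Dlg3 was higher (0.13, FDR 0.0202). Dlg4 no longer passed with the mouse as a block (edgeR FDR 0.257, 0.00899–0.257 over the alternatives), and Shank3 differed by -0.03 with an interval from -0.20 to 0.14.

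The question of the ethanol contrasts was whether acute or chronic exposure moved the scaffold transcripts in each region, and whether the effects of the paradigms differed. After acute ethanol the Shank genes and Dlgap3 fell in CTX, and they were the only members called there. Shank1, the largest mover of its family, was at 580, 603 and 597 CPM in the saline libraries and at 493, 479 and 393 CPM in the ethanol libraries. All 3 ethanol libraries lay below all 3 saline libraries (log2 fold change -0.38, SE 0.071, edgeR FDR 0.0302). Dlgap3, whose loss in mice is known for compulsive grooming, went from 443, 471 and 454 CPM to 389, 334 and 325 CPM, again without overlap (-0.39, SE 0.062, FDR 0.0173). Shank3 was at 267, 286 and 290 CPM in saline mice and 252, 224 and 227 CPM in ethanol mice (-0.27, SE 0.056, FDR 0.0493). Shank2 was at 228, 237 and 225 CPM and then at 210, 197 and 174 CPM (-0.25, SE 0.063, FDR 0.0939). The saline libraries of these 4 genes were tightly grouped, and ethanol replicate 5 was the lowest for Shank1, Shank2 and Dlgap3.

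The other members of CTX did not pass after acute ethanol. Dlgap1 and Dlgap4 were both at -0.12, Dlg4 at -0.13, Dlgap2 at -0.08, Dlg3 at -0.02 and Dlg2 at 0.00. Altogether 9 of 10 members had a negative fold change, with a median of -0.13 against 0.00 over all genes, 49.4% of which were lower. edgeR called 1.99% of all genes (DESeq2 3.69%) and 4 of the 10 members with either tool. The groups did not overlap and were lower with ethanol for 7 members and for 8.40% of all genes.

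The cortical calls depended on the fit and on single libraries. Over the alternatives the edgeR or DESeq2 FDR ran from 2.43e-12 to 0.529 for Shank1, from 1.65e-11 to 0.529 for Dlgap3, from 5.92e-05 to 0.623 for Shank3 and from 0.000362 to 0.682 for Shank2. No member was called without ethanol replicate 4, 1 without saline replicate 4, and 2 without saline replicate 6 or without ethanol replicate 5. Over the 6 fits that left out a library, from 42 to 794 of all genes were called. Fold changes also followed GC content in this contrast. The 317 genes with GC of 60% or more and a mean of at least 10 CPM had a median of -0.12 with 82.0% lower, while the 2953 genes under 45% GC had a median of 0.04 with 31.7% lower. Shank1, Shank3 and Dlgap3 are the members above 60%. With the trend of GC and length taken out, Dlgap3 (-0.26, FDR 0.0263) and Shank1 (-0.25, FDR 0.0666) passed and Shank2 (-0.21, FDR 0.128) and Shank3 (-0.11, FDR 0.353) did not. The myelin sum was 2910, 2900 and 2200 CPM in the ethanol and 2130, 1880 and 2030 CPM in the saline libraries, with 6 of 6 myelin genes higher and 5 of them called. The striatal projection sum was 343, 320 and 384 CPM with saline and 297, 278 and 305 CPM with ethanol, without overlap, with 8 of 9 genes lower (median -0.32) and 3 called. The pallial sum overlapped (1810–1890 CPM with ethanol and 1760–1920 CPM with saline). The part of these markers and of GC content in the result was not tested.

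**Figure D2:**
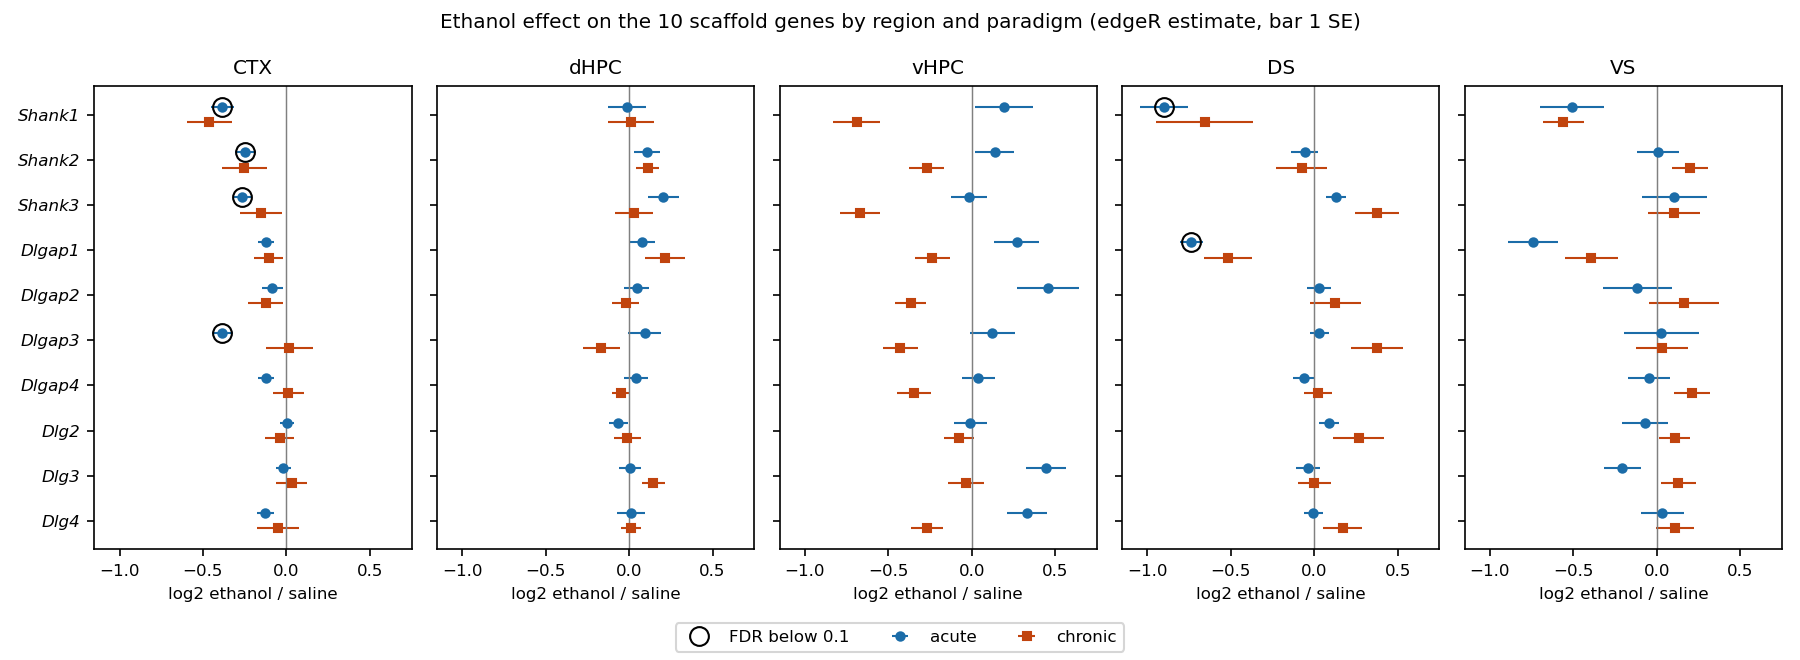
Log2 fold change of each member with ethanol against saline in the 5 regions, circles for acute and squares for chronic exposure, with bars of 1 SE and a black ring where the edgeR FDR is under 0.1. The rings are on Shank1, Shank2, Shank3 and Dlgap3 in acute CTX and on Shank1 and Dlgap1 in acute DS, and the vHPC chronic values are a description.

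After chronic ethanol in CTX, edgeR called 0 of 10 members and 0% of all genes, and DESeq2 called 0 members and 0.608% of genes. In edgeR 1 member had an unadjusted p under 0.05, against 10.4% of all genes. That member was Shank1, at 547, 547 and 452 CPM in saline and 398, 299 and 431 CPM in ethanol mice. Its groups did not overlap (8.91% of all genes were lower without overlap), and the spread within each was wide (-0.46, SE 0.135, edgeR FDR 0.443, 0.106–0.791 over the alternatives). Shank2 was at -0.25 (interval -0.52 to 0.02) and Shank3 at -0.15 (-0.40 to 0.10). Dlgap2 was at -0.12, Dlgap1 at -0.11, Dlg4 at -0.05, Dlg2 at -0.04, Dlg3 at 0.03 and Dlgap4 at 0.01. Dlgap3, called after acute ethanol, was at 0.02 after chronic ethanol, with an interval from -0.26 to 0.30. The interaction, the chronic minus the acute effect, was 0.39 for Dlgap3 (SE 0.165, edgeR FDR 0.600, 0.0655–0.867 over the alternatives). edgeR called 0 members for the interaction and 0% of genes, and DESeq2 called 0 members and 0.0791% of genes. Dlgap3 was the 1 member at an unadjusted edgeR p under 0.05, against 8.19% of all genes. For Shank1 the interaction was -0.09 with an interval from -0.42 to 0.24, so a difference between paradigms of that size cannot be resolved. The other interactions were 0.12 for Dlgap4, 0.10 for Shank3, 0.07 for Dlg4, 0.04 for Dlg3, 0.00 for Dlgap1, -0.02 for Shank2, -0.05 for Dlgap2 and -0.06 for Dlg2.

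In DS, Shank1 and Dlgap1 were lower after acute ethanol, and no other member was called. Dlgap1, the Dlgap gene that is low in the striatum, was at 240, 209 and 215 CPM in saline mice and at 132, 135 and 134 CPM in ethanol mice. The ethanol libraries agree within 3 CPM, and the gap to the lowest saline library is far wider than the spread of either group (-0.74, SE 0.068, edgeR FDR 0.000119, 9.41e-20 to 0.0123 over the alternatives). Shank1 was at 140, 89.8 and 154 CPM and then at 66.7, 68.9 and 70.6 CPM (-0.90, SE 0.146, FDR 0.00381), also without overlap. Its call held in all 6 fits that left out a library and was lost when the 4 groups of DS shared a fit (FDR 0.138, 4.18e-25 to 0.138 over the alternatives). The other 8 members lay between -0.06 (Dlgap4 and Shank2) and 0.13 (Shank3), with Dlg2 at 0.09, Dlgap2 and Dlgap3 at 0.03, Dlg3 at -0.04 and Dlg4 at 0.00, with intervals such as -0.12 to 0.11 for Dlg4 and -0.08 to 0.14 for Dlgap3. edgeR called 2 of 10 members and 5.15% of all genes, and DESeq2 the same number of members and 6.40% of genes. Without overlap, 2 members and 10.4% of all genes were lower with ethanol.

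The chronic contrast of DS rests on 2 saline libraries, replicates 3 and 6, against 4 ethanol libraries. Dlgap1 was at 225 and 180 CPM with saline and 146, 135, 170 and 121 CPM with ethanol, which do not overlap (-0.52, SE 0.145, edgeR FDR 0.482, 0.0168–0.969 over the alternatives). Shank1 was at 113 and 81.1 CPM and then at 57.3, 66.1, 89.2 and 35.9 CPM, with ethanol replicate 5 between the saline libraries (-0.66, SE 0.291, FDR 0.665, 0.0446–0.995). Shank3 had the opposite sign, at 237 and 318 CPM with saline and 340, 384, 330 and 401 CPM with ethanol (0.38, SE 0.133, FDR 0.573). Dlgap3 was at 0.38 as well (SE 0.156, FDR 0.634). Dlg2 was at 0.27, Dlg4 at 0.17, Dlgap2 at 0.13, Dlgap4 at 0.03 (interval -0.14 to 0.19), Dlg3 at 0.00 and Shank2 at -0.07. None passed: edgeR called 0 members and 0% of genes, and DESeq2 0 members and 0.776% of genes. In edgeR 3 members had an unadjusted p under 0.05, against 7.53% of all genes. Without overlap, 1 member was lower and 1 higher with ethanol, against 7.96% and 9.43% of all genes. For the interaction edgeR called 0 members and 0% of genes, with 0 members at an unadjusted p under 0.05 (4.16% of all genes). DESeq2 called 0 members and 0.0190% of genes. The interaction of Dlgap1 was 0.22 with an interval from -0.11 to 0.56. It was 0.35 for Dlgap3, 0.25 for Shank1 and Shank3, 0.18 for Dlg2 and Dlg4, 0.10 for Dlgap2, 0.09 for Dlgap4, 0.04 for Dlg3 and -0.01 for Shank2.

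In VS the same pair of genes had the lowest fold changes in both paradigms, but edgeR called neither. After acute ethanol Dlgap1 was at 177, 252 and 270 CPM with saline and 132, 136 and 153 CPM with ethanol, without overlap (-0.74, SE 0.150, edgeR FDR 0.198, 2.18e-06 to 0.905 over the alternatives). Shank1 was at 124, 202 and 229 CPM and then at 117, 137 and 139 CPM, with saline replicate 2 inside the ethanol range (-0.51, SE 0.193, FDR 0.582, 0.00787–0.996). Without that replicate both passed, Dlgap1 at -0.90 (FDR 0.0233) and Shank1 at -0.73 (FDR 0.0752). Fits of this contrast that left out a library called from 0 to 290 of all genes. edgeR called 0 members and 0.0399% of genes, with 2 members at an unadjusted p under 0.05 (7.32% of all genes). DESeq2 called 1 member, Dlgap1, and 0.889% of genes. Without overlap, 1 member and 6.04% of all genes were lower with ethanol. The other members were at -0.21 (Dlg3), -0.12 (Dlgap2), -0.07 (Dlg2), -0.05 (Dlgap4), 0.01 (Shank2), 0.03 (Dlgap3 and Dlg4) and 0.10 (Shank3).

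After chronic ethanol in VS, Shank1 was at 190, 167 and 135 CPM with saline and 114, 116 and 105 CPM with ethanol, without overlap (-0.56, SE 0.123, edgeR FDR 0.238, 0.00535–0.706 over the alternatives). Dlgap1 was at 236, 146 and 168 CPM and then at 143, 145 and 134 CPM, with saline replicate 5 just above the ethanol range (-0.39, SE 0.159, FDR 0.463, 0.0773–0.731). Without saline replicate 5 both passed, Shank1 at -0.55 (FDR 0.0749) and Dlgap1 at -0.53 (FDR 0.0773). Fits of this contrast that left out a library called from 0 to 615 of all genes. edgeR called 0 members and 0% of genes, with 2 members at an unadjusted p under 0.05 (9.95% of all genes). DESeq2 called 1 member, Shank1, and 1.79% of genes. Without overlap, 2 members and 7.46% of all genes were lower with ethanol. The other 8 members were at 0.21 (Dlgap4), 0.20 (Shank2), 0.16 (Dlgap2), 0.13 (Dlg3), 0.11 (Dlg4 and Dlg2), 0.11 (Shank3, interval -0.21 to 0.42) and 0.03 (Dlgap3). For the interaction in VS edgeR called 0 members and 0% of genes, with 0 members at an unadjusted p under 0.05 (4.62% of all genes). DESeq2 called 0 members and 0.0191% of genes. The interaction of Dlgap1 was 0.35 (interval -0.13 to 0.83) and that of Shank1 -0.05 (interval -0.56 to 0.47). The others were 0.34 for Dlg3, 0.28 for Dlgap2, 0.26 for Dlgap4, 0.19 for Shank2, 0.18 for Dlg2, 0.08 for Dlg4 and 0.00 for Shank3 and Dlgap3.

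Pallial excitatory neuron markers moved with Shank1 and Dlgap1 in the striatum. Their sum over 7 genes in acute DS was 382, 407 and 490 CPM in the saline and 25.2, 103 and 15.6 CPM in the ethanol libraries, and in chronic DS 583 and 408 against 23.4, 155, 53.1 and 19.7 CPM. In VS it was 318, 592 and 803 against 119, 14.3 and 28.2 CPM after acute and 704, 52.8 and 423 against 10.4, 70.7 and 13.0 CPM after chronic exposure. Saline libraries thus held more of these markers than ethanol libraries in all 4 contrasts, except VS chronic saline replicate 5. In that library, with a pallial sum of 52.8 CPM, Dlgap1 was at 146 CPM, next to the ethanol libraries at 134–145 CPM, while Shank1 was at 167 CPM, above the ethanol libraries at 105–116 CPM. Shank1 and Dlgap1 are also the members with the largest regional difference between vHPC and the striatum. The striatal projection sum in acute DS was 6060, 7290 and 6550 CPM with saline and 8310, 8060 and 8050 CPM with ethanol. The part of these markers in the changes of Shank1 and Dlgap1 was not tested.

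**Figure D3:**
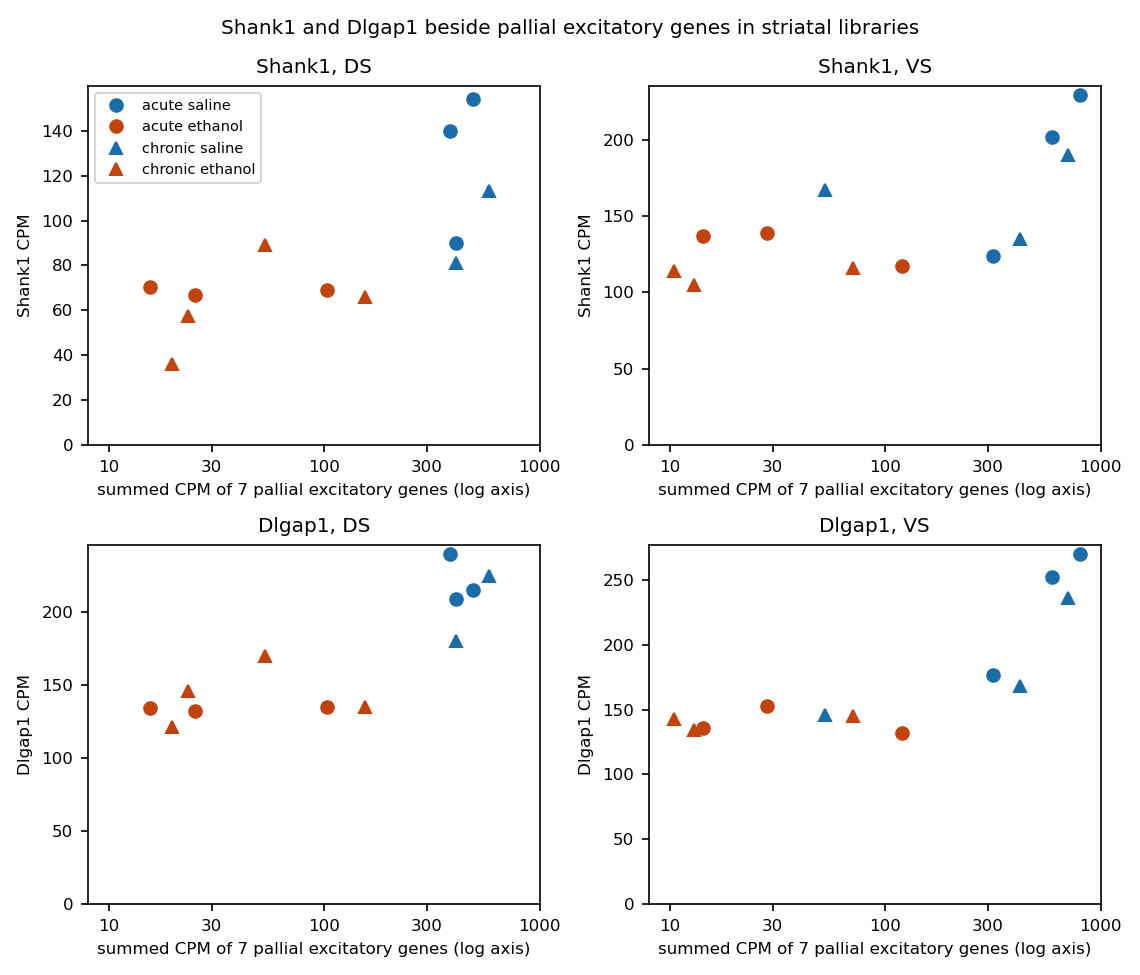
Shank1 and Dlgap1 in CPM against the summed pallial excitatory markers in CPM, on a log axis, for each DS and VS library, with treatment and paradigm marked. All libraries of ethanol mice have sums at or below 155 CPM, and the only saline library among them is the VS chronic saline replicate 5, at 52.8 CPM.

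In dHPC neither paradigm moved a member past the threshold. After acute ethanol 8 of 10 fold changes were positive with a median of 0.04, and the highest was Shank3 at 0.21 (SE 0.093, edgeR FDR 0.631, 0.435–0.997 over the alternatives). Shank3 was at 224, 252 and 272 CPM in saline and 299, 327, 268 and 252 CPM in ethanol mice, which overlap. edgeR called 0 members and 0.0420% of genes, with 1 member at an unadjusted p under 0.05 (7.88% of all genes). DESeq2 called 0 members and 1.07% of genes. The other fold changes were 0.11 for Shank2, 0.09 for Dlgap3, 0.08 for Dlgap1, 0.05 for Dlgap2, 0.04 for Dlgap4, 0.01 for Dlg4 and -0.01 for Shank1. Dlg3 was at 0.00 (interval -0.13 to 0.14) and Dlg2 at -0.06 (interval -0.18 to 0.05).

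After chronic ethanol in dHPC, Dlgap1 was at 546, 419 and 589 CPM with saline and 625, 609 and 568 CPM with ethanol (0.22, SE 0.118, edgeR FDR 0.670). Dlg3 was at 224, 197 and 226 CPM and then at 249, 229 and 238 CPM (0.15, SE 0.071, FDR 0.640). It was the 1 member whose groups did not overlap, where 6.56% of all genes were higher with ethanol without overlap. The lowest saline value of Dlgap1 and of Dlg3 is that of replicate 5, the library with the high striatal sum. Dlgap3 had the reverse pattern, at 288, 349 and 256 CPM against 282, 256 and 257 CPM, with replicate 5 the highest (-0.17, FDR 0.713). Shank2 was at 0.11, Shank3 at 0.03, Shank1 and Dlg4 at 0.01, Dlg2 at -0.01, Dlgap2 at -0.02 and Dlgap4 at -0.05. Without replicate 5 the median of the members was 0.04, their range -0.12 to 0.13, and 0 were called. edgeR called 0 members and 0% of genes in the chronic contrast, with 0 members at an unadjusted p under 0.05 (8.23% of all genes). DESeq2 called 0 members and 0.859% of genes. For the interaction edgeR called 0 members and 0% of genes, with 0 members at an unadjusted p under 0.05 (4.48% of all genes). DESeq2 called 0 members and 0.00745% of genes. The interaction was -0.27 for Dlgap3 (interval -0.59 to 0.06), -0.18 for Shank3, -0.10 for Dlgap4 and -0.07 for Dlgap2. It was 0.14 for Dlg3, 0.13 for Dlgap1, 0.05 for Dlg2, 0.02 for Shank1 and 0.00 for Shank2 and Dlg4.

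In vHPC after acute ethanol 8 of 10 members had positive fold changes, with a median of 0.17. Dlg3, an X-linked member of the membrane layer, was at 174, 171 and 208 CPM with saline and 256, 215 and 287 CPM with ethanol. The groups did not overlap, where 9.22% of all genes were higher with ethanol without overlap. The change of Dlg3 passed with DESeq2 only (0.45, SE 0.118, edgeR FDR 0.245, DESeq2 FDR 0.0373, 0.0373–0.682 over the alternatives). Dlgap2 was at 41.7, 63.6 and 69.2 CPM and then at 84.0, 65.9 and 91.1 CPM (0.46, SE 0.186, edgeR FDR 0.388). Dlg4 was at 566, 578 and 748 CPM and then at 843, 708 and 847 CPM (0.33, SE 0.120, FDR 0.348), and Dlgap1 was at 0.27 (interval 0.00 to 0.54). Shank1 was at 0.20 (interval -0.15 to 0.54), Shank2 at 0.14, Dlgap3 at 0.13 (interval -0.14 to 0.39), Dlgap4 at 0.04 and Dlg2 at -0.01. Acute saline replicate 6 was the highest and replicate 2 or 4 the lowest saline library for these genes, and ethanol replicate 4 was the lowest ethanol library. Shank3, at -0.02 with an interval from -0.23 to 0.20, did not share the positive sign. edgeR called 0 members and 0% of genes, with 3 members at an unadjusted p under 0.05 (11.9% of all genes). DESeq2 called 1 member and 2.90% of genes. Acute saline replicate 2 had a thalamic sum of 794 CPM and a choroid plexus sum of 2360 CPM, and ethanol replicate 4 a striatal sum of 1220 CPM and a choroid sum of 1980 CPM. The dentate granule sum was 246, 201 and 76.3 CPM in the saline and 395, 304 and 493 CPM in the ethanol libraries, without overlap, with 4 of 4 genes higher (median 1.32), and 5 of 5 thalamic genes were lower (median -1.94). edgeR called none of these marker genes and DESeq2 called 1 thalamic gene lower, and their part in the members' values was not tested. The median of the members was 0.13 without acute saline replicate 2, 0.30 without ethanol replicate 4 and 0.29 without saline replicate 6, and no member was called in any of these.

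After chronic ethanol in vHPC, the contrast whose results were known when the genes were chosen, all 10 members had negative fold changes, with a median of -0.31 against 0.01 over all genes. Shank3, on which the choice rested, was at 385, 339 and 436 CPM in saline and 278, 220 and 232 CPM in ethanol mice (-0.67, SE 0.120). Shank1 was at 701, 621 and 724 CPM and then at 520, 340 and 413 CPM (-0.69, SE 0.142). In both genes the 3 ethanol libraries lay below the 3 saline libraries. Dlgap3 (364, 343 and 424 CPM, then 289, 296 and 259 CPM) was at -0.43, Dlgap4 (280, 264 and 309 CPM, then 247, 206 and 220 CPM) at -0.35, and Shank2 (238, 212 and 243 CPM, then 205, 168 and 203 CPM) at -0.27. Dlgap2 went from 78.9, 84.2 and 83.4 CPM to 66.8, 63.3 and 61.8 CPM (-0.37, SE 0.091). Its groups had the smallest SDs in CPM of any member here, at the lowest level of any member. Dlg4 (863, 735 and 795 CPM, then 671, 612 and 710 CPM) was at -0.27 and Dlgap1 (717, 630 and 624 CPM, then 595, 489 and 594 CPM) at -0.24. The Dlg genes other than Dlg4 differed least: Dlg2 was at -0.07 and Dlg3 at -0.04, and their groups overlapped. Groups did not overlap, and were lower with ethanol, for 8 members and for 6.66% of all genes. edgeR called 0 members and 0.0555% of genes, and DESeq2 3 members and 1.08% of genes. In edgeR 7 members and 9.51% of all genes had an unadjusted p under 0.05. Since the genes were selected on this contrast, nothing is read from these counts.

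Several marker sums moved in the chronic vHPC libraries. The choroid plexus sum was 27.2, 208 and 118 CPM in the saline libraries and 892, 3160 and 1370 CPM in the ethanol libraries, and the myelin sum 3270, 5430 and 3230 against 5460, 8930 and 4640 CPM. The pallial excitatory sum was 2110, 2150 and 2500 CPM with saline and 1970, 1420 and 1610 CPM with ethanol, and of its 7 genes 4 were lower and 3 higher (median -0.26). The pan-neuronal sum was 5590, 5810 and 6410 against 5930, 4570 and 4630 CPM, with 6 of 6 genes lower (median -0.20). All 8 choroid plexus genes (median 3.81), 6 myelin genes (0.68) and 9 striatal projection genes (1.62) were higher. edgeR called 3 of the choroid plexus genes, where 0.0555% of all genes were called. Ethanol replicate 5 had the highest choroid and myelin sums, a striatal sum of 1500 CPM and the lowest value of Shank1, Shank3 and 6 other members. Without it 9 members were lower with a median of -0.25, Shank3 stood at -0.60, Shank1 at -0.55 and Dlg3 at 0.03. Without ethanol replicate 4 the median was -0.35 with 2 members called. Over the 6 fits that left out a library, from 0 to 360 of all genes were called, and nothing is read from these counts. The 292 genes of 60% GC or more had a median of -0.16, and with the GC and length trend taken out Shank1 was at -0.60 and Shank3 at -0.58. The part of these in the lower levels was not tested.

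**Figure D4:**
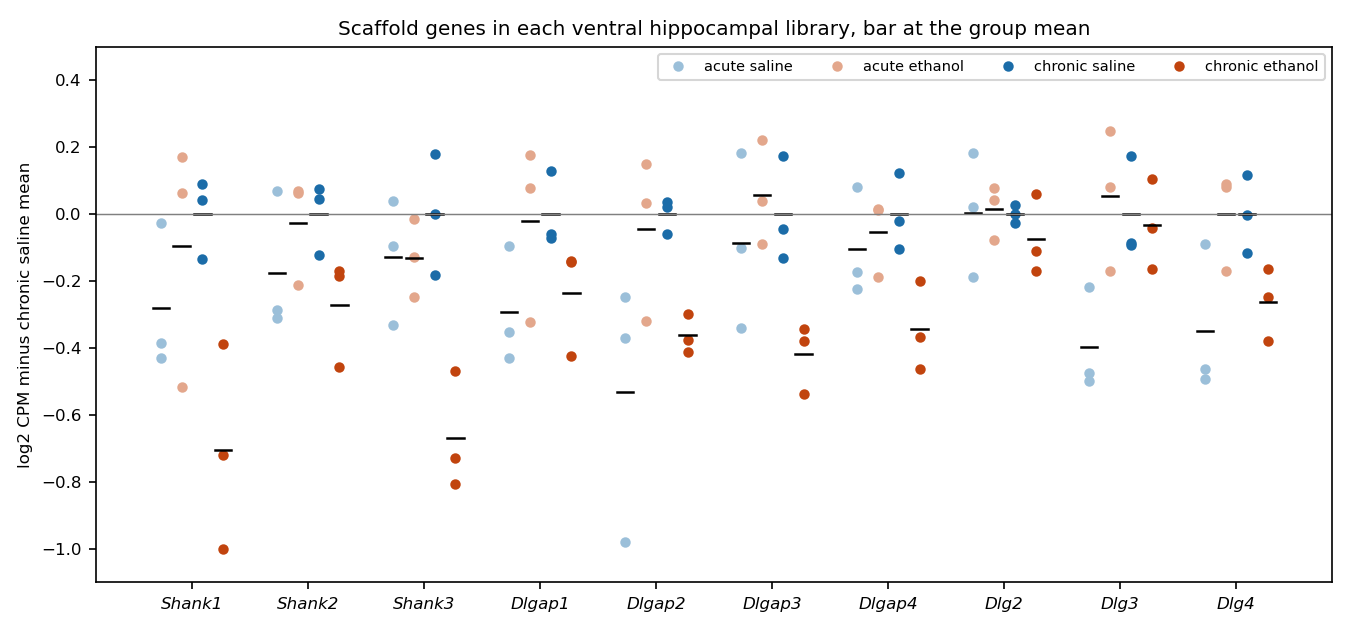
Log2 CPM of the 10 members in each vHPC library, minus the mean of the chronic saline libraries of the same gene, with points for libraries and bars for group means. For 8 members, all but Dlg2 and Dlg3, the 3 chronic ethanol libraries lie below the 3 chronic saline libraries, and for Dlg3 the 3 acute ethanol libraries lie above the 3 acute saline libraries.

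The interaction in vHPC was negative for all 10 members, from -0.89 for Shank1 to -0.07 for Dlg2 with a median of -0.53, and is likewise a description. It was -0.82 for Dlgap2, -0.66 for Shank3, -0.60 for Dlg4, -0.55 for Dlgap3, -0.51 for Dlgap1, -0.48 for Dlg3, -0.41 for Shank2 and -0.39 for Dlgap4 (SE 0.143). The share of each paradigm differed between members: Shank3 was at -0.02 after acute and -0.67 after chronic exposure, and Dlg3 at 0.45 and -0.04. For Dlg3, Dlg4 and Dlgap2 the acute saline means (184 ± 20.7, 630 ± 102 and 58.2 ± 14.6 CPM) lay below the chronic saline means (243 ± 26.1, 798 ± 63.9 and 82.1 ± 2.86 CPM), while the acute ethanol means (253 ± 36.3, 799 ± 78.9 and 80.3 ± 13.0 CPM) were close to the latter (SD, n = 3). edgeR called 0 members and 0% of genes, and DESeq2 5 members and 2.02% of genes. In edgeR 9 members and 11.5% of all genes had an unadjusted p under 0.05, and nothing is read from any of these counts. Without acute saline replicate 6, 4 members were called. Over the 12 fits that left out a library, from 0 to 434 of all genes were called, and nothing is read from these counts.

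Isoform counts moved with their genes. In acute CTX edgeR called 18 of the 122 member isoforms, all lower, in 4 genes, where 1.24% of all isoforms were called (2.24% with DESeq2, which called 24 of the members' isoforms). They were 6 of 6 isoforms of Shank1, 4 of 4 of Dlgap3, 5 of 10 of Shank3 and 3 of 7 of Shank2. The smallest p-values were those of 3 protein-coding Dlgap3 isoforms. Dlgap3-203 went from 143 ± 3.09 to 110 ± 10.5 CPM (SD, n = 3 and 3, -0.38, edgeR FDR 0.00818), Dlgap3-201 from 144 ± 3.41 to 111 ± 10.8 CPM (-0.39, FDR 0.00847) and Dlgap3-202 from 124 ± 2.61 to 96.3 ± 9.52 CPM (-0.37, FDR 0.0109). A read pair that fits several isoforms was counted for each of them, so the isoforms of a gene share most reads and are not separate evidence. The number called ran from 4 without saline replicate 4, through 5 and 6 without ethanol replicates 4 and 5 and 8 without saline replicate 6, to 22. It was 0 when the 4 groups of CTX shared a fit. Fits of acute CTX that left out a library called from 260 to 3579 of all isoforms.

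In acute DS edgeR called 25 isoforms, all lower, 19 of 20 of Dlgap1 and 6 of 6 of Shank1, against 3.59% of all isoforms (3.64% with DESeq2, which also called 25). Dlgap1-211 fell from 61.7 ± 4.22 to 35.3 ± 0.928 CPM (SD, n = 3 and 3, -0.81, edgeR FDR 4.11e-06). Dlgap1-206 fell from 33.0 ± 2.26 to 18.7 ± 0.0158 CPM (-0.82, FDR 5.97e-06), and Dlgap1-207, which spans the whole gene and has the highest count of its isoforms, from 69.9 ± 5.14 to 41.6 ± 1.04 CPM (-0.75, FDR 6.56e-06). In acute VS 3 Dlgap1 isoforms were called (0.233% of all isoforms, 0.708% with DESeq2, which called 16): Dlgap1-211 (-0.82, FDR 0.0635), Dlgap1-220, a retained intron (-0.86, FDR 0.0635), and Dlgap1-207 (-0.76, FDR 0.0782). That number was 20 without acute saline replicate 2 and 8 without ethanol replicate 2. It was 0 without saline replicate 4, saline replicate 6 or ethanol replicate 3, or when the 4 groups of VS shared a fit. Fits of acute VS that left out a library called from 0 to 1531 of all isoforms. Among isoforms with a mean of at least 5 CPM, the one farthest from its gene in the acute and chronic contrasts of DS and VS was Dlgap1-203, a retained-intron transcript over the upstream part of the locus (chr17:70276363-70825801). It was at -0.36 (SE 0.108) in acute DS where the gene was at -0.74, and at -0.36 (SE 0.183), -0.03 (SE 0.166) and 0.02 (SE 0.156) in acute VS, chronic DS and chronic VS where the gene was at -0.74, -0.52 and -0.39. The difference between isoform and gene was not tested. Over the isoforms of at least 5 CPM, the median distance from the gene's fold change was 0.01 in acute CTX and 0.03 in acute DS.

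edgeR called 0 member isoforms in the other contrasts. In chronic CTX 6 of 122 had an unadjusted p under 0.05, against 9.80% of all isoforms, and DESeq2 called 0 (0% of all isoforms called with edgeR, 0.301% with DESeq2). For the CTX interaction the numbers were 5 and 0 (7.61% of all isoforms under 0.05, 0% and 0.264% called). The shares over all isoforms are given below in the same order. In dHPC the numbers were 5 and 0 after acute (7.69%, 0.00150% and 0.704%), 2 and 0 after chronic exposure (7.23%, 0% and 0.506%) and 0 and 0 for the interaction (4.39%, 0% and 0%). In acute vHPC 50 isoforms had an unadjusted p under 0.05 and DESeq2 called 4, all of Dlg3 and higher (11.0%, 0% and 1.65%). Without acute saline replicate 6 edgeR called 21. In chronic DS the numbers were 34 and 4, the latter of Dlgap1 and lower (7.32%, 0% and 0.467%), and for the DS interaction 6 and 0 (4.44%, 0% and 0.0107%). In chronic VS they were 27 and 4, of Shank1 and Dlgap1 and lower (9.01%, 0.00827% and 1.02%), with 15 called by edgeR without saline replicate 5, and for the VS interaction 4 and 0 (4.81%, 0% and 0.105%). In chronic vHPC, as a description, 80 isoforms had an unadjusted p under 0.05 and DESeq2 called 19 (8.81%, 0.0402% and 0.723%), with 20 called by edgeR without ethanol replicate 4. For the vHPC interaction the numbers were 91 and 55 (10.6%, 0% and 1.39%), with 38 and 19 called by edgeR without acute saline replicate 6 or acute ethanol replicate 4. Fits that left out a library called from 0 to 1241 of all isoforms in acute vHPC and from 0 to 2887 in chronic VS. In chronic vHPC such fits called from 0 to 1735 of all isoforms, and for the vHPC interaction from 0 to 1459. Nothing is read from these counts.

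The highest-count isoform of every member was protein-coding. It was Shank1-203, Shank2-202, Shank3-203, Dlgap1-207, Dlgap2-203, Dlgap3-201, Dlgap4-205, Dlg2-204, Dlg3-202 and Dlg4-215. Their means over all libraries of a region followed the genes, Shank1-203 from 178 ± 40.5 CPM in vHPC to 27.5 ± 11.2 CPM in DS and Dlgap1-207 from 181 ± 24.1 to 53.0 ± 13.6 CPM. Shank3-203, at 102 ± 20.2 CPM in vHPC and 109 ± 13.5 CPM in DS, did not show that drop.

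Other postsynaptic genes, 48 in 4 lists, were also measured. In acute CTX 33 of the 48 were lower and 15 higher with a median of -0.08, and edgeR called 5 lower and 1 higher (1.99% of all genes called). The 10 signalling genes were all lower, with a median of -0.17. Among them Ppp1r9b, the spine protein spinophilin, fell by 0.24 on the log2 scale (edgeR FDR 0.0493). Among 17 receptors and adhesion molecules, Cacng3, an AMPA receptor auxiliary subunit, was at -0.29 (FDR 0.0370) and Nlgn2, a neuroligin of inhibitory synapses, at -0.23 (FDR 0.0700). Lrrtm2, an adhesion molecule of excitatory synapses, rose (0.29, FDR 0.0443). Grin2b, an NMDA receptor subunit named after its values were seen, beyond the limit of 3 genes per list, was at -0.24 (FDR 0.0991). None of the 8 relatives of the Dlg and Dlgap genes and none of the 13 Shank and Dlgap partners was called by edgeR, and DESeq2 called 1 partner lower. In acute DS 28 were lower and 20 higher with a median of -0.06, and edgeR called 6 higher and 2 lower (5.15% of all genes called), while the called members there were both lower. Among the partners, Abi1 (0.30, FDR 0.0266) and Baiap2 (0.29, FDR 0.0345), both regulators of actin in spines, rose, and Dynll1, a dynein light chain, fell (-0.26, FDR 0.0580). Lzts3, a further Shank partner named after its values were seen, rose by 0.27 (FDR 0.0796). Among the receptors and adhesion molecules, Nlgn1 (0.33, FDR 0.0463), Grm5 (0.24, FDR 0.0756) and Gria1 (0.21, FDR 0.0909) rose. Mpp2, a relative of the Dlg genes, fell (-0.29, FDR 0.0501).

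In the other contrasts edgeR called none of the 48. The medians were -0.03 in chronic CTX, 0.03 and 0.09 in acute and chronic dHPC, 0.22 and -0.20 in acute and chronic vHPC, 0.05 in chronic DS, and -0.05 and 0.06 in acute and chronic VS. DESeq2 called 10 of them higher in acute vHPC (2.90% of all genes called either way), 5 lower in chronic vHPC (1.08%) and 2 lower in chronic CTX (0.608%). It called 1 each way in acute dHPC (1.07%), 2 higher in chronic dHPC (0.859%), 1 higher in chronic DS (0.776%), 1 lower in acute VS (0.889%) and 0 in chronic VS (1.79%). In vHPC 13 of 48 were lower after acute exposure, where 50.6% of all genes were lower. After chronic exposure 36 of 48 were lower, against 48.9% of all genes. The lists were chosen with earlier results of these data known, so these counts are a description. In chronic vHPC the 10 signalling genes were all lower (median -0.31) and the 8 relatives were divided evenly, 4 lower and 4 higher (median -0.03). For the interactions the medians were -0.37 in vHPC, -0.01 in CTX, 0.04 in dHPC, 0.11 in VS and 0.12 in DS, with 15 called lower by DESeq2 in vHPC (2.02% of all genes) and 0 elsewhere.

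Across libraries the members divided into genes that moved together and genes that did not. With log2 CPM centred within each region over 61 libraries, the 45 pairs of members had a median Pearson r of 0.46, from -0.18 for Shank1 and Dlg2 to 0.87 for Shank3 and Dlgap3, and 41 were above 0. Shank1 ran with Dlgap1 (0.79), the pair that was low in the striatum of ethanol mice, and Dlg4 with Dlg3 and Dlgap2 (both 0.76). Shank3, by contrast, was at -0.15 with Dlgap1 and Dlgap1 at -0.18 with Dlg2. Libraries share mice, batch, depth and the GC trend, so these values describe the libraries and are given with no p. Differences of treatment and paradigm stay in them, since levels were centred by region only. The chronic vHPC libraries, whose results were known when the genes were chosen, are among the 61. Positive values between members are thus in part built in, and no r over pairs of other genes is given beside them. Among the other genes most like Shank3, of 10896 with enough counts, were Ppp1r9b and Rasl10b (both 0.81), Hpca (0.79) and Tln2 (0.77). Among those most like the mean of the 10 members were Ppp1r9b (0.88), Agap2 (0.86), Snph (0.85) and Ttbk1 (0.85).

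**Figure D5:**
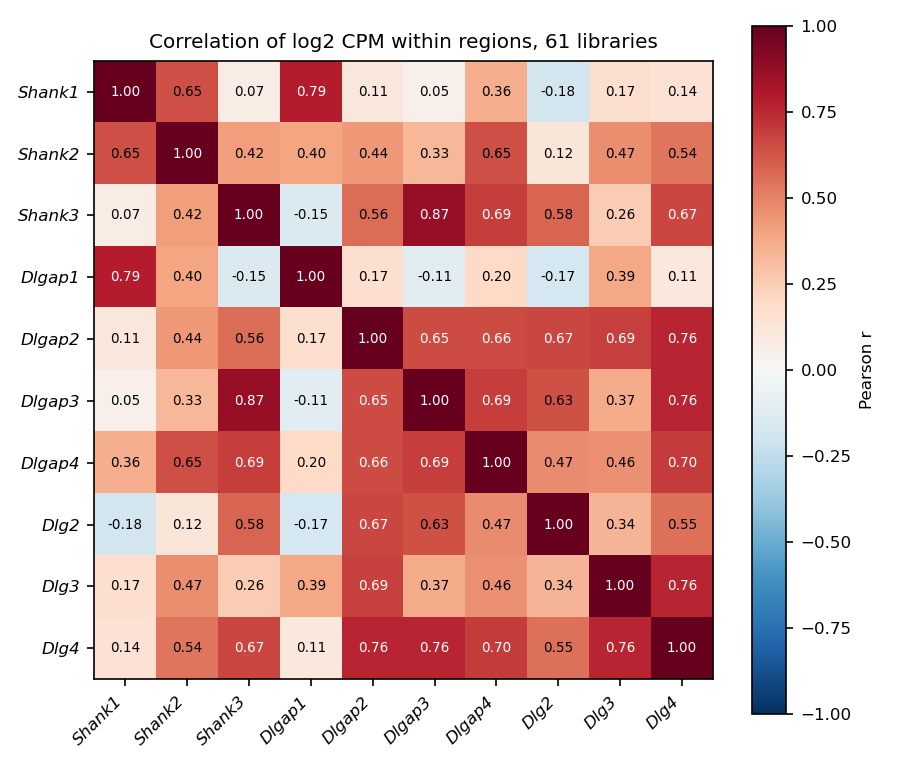
Pearson r between members over 61 libraries, from log2 CPM centred within each region. The highest value is that of Shank3 with Dlgap3 (0.87) and the lowest that of Shank1 with Dlg2 (-0.18).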

How the data were processed

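RNA-seq of 62 libraries from 5 brain regions of male mice was analysed from the authors' count tables. Per the paper's methods and the submitters' processing notes, the authors removed adapters (Cutadapt 5.0), mapped the pairs on GRCm39 (STAR 2.7.10a) and counted them per gene and per isoform with featureCounts 2.0.6, counting pairs that matched several places or features for each of them and counting every library as reverse-stranded. The deposited values are raw counts, used as they stand, and no column belonged to another sample (0 such columns). The DS chronic saline replicate 2, which has no counts on 6 chromosomes, was left out, so 61 libraries were used.

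The low-count filter asked for 5 or more counts in 2 or more libraries of any group compared. Libraries were scaled by TMM and features tested with edgeR 4.0.16 (quasi-likelihood, R 4.3.3), with treatment as the only term within a region and paradigm, or paradigm, treatment and their interaction, for the region contrasts and the interaction. P-values were adjusted by the Benjamini–Hochberg method over all features tested and called at an FDR under 0.1. The script was tested on simulated data. Intervals are 2 SE. CPM values were scaled by TMM within each batch of kit and platform, and region levels were divided by summed exon length. For correlations 0.5 was added to the CPM before taking logs, and only genes with a mean of at least 10 CPM were compared. Tables were joined and drawn with Python 3.11.15, pandas 2.3.3, numpy 2.4.6 and matplotlib 3.10.9.

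The members, the 4 lists of postsynaptic genes (8 relatives, 13 partners, 10 signalling genes, 17 receptors and adhesion molecules) and the 10 marker lists were chosen with earlier results of these data known. All members are named in every gene-level comparison. Isoforms are named by the 3 smallest p-values per comparison with calls, and listed genes by an FDR under 0.1, at most 3 per list and comparison. Some genes that these rules name are not reported here. Alternatives were DESeq2 1.42.0, its size factors in edgeR, no filter on low counts, a stricter filter (10 or more counts throughout), a joint fit of a region's 4 groups, GC and length trends removed per library (a spline with 5 df), a replicate or mouse block, the incomplete library kept in, and each library left out in turn. Libraries of a mouse in several regions share its number in the labels, so the mouse was the block of the region contrasts. Saline and ethanol mice share numbers only. Promoter windows are RefSeq's for GRCm38.p6, a different build from that of the counts, and were matched by symbol for 7 of 10 members.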

Additional observations from a re-analysis of the deposited data

Results flagged for a closer look

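In a search of the members' groups of 4 libraries for a value far from the others, 1 of the 20 tests stood out. That is about as many as chance gives at 1 in 20, but the members share libraries, so the tests are not independent. Dlg3 in the dHPC after acute ethanol was at 185 CPM in replicate 4 against 216, 218 and 221 CPM in replicates 2, 3 and 5, while the 3 saline libraries were at 215, 209 and 205 CPM. That replicate was also the lowest ethanol library for every other member except Shank3 and Dlg2. It had Shank1 at 260 CPM, Shank2 at 122 CPM, Dlgap1 at 462 CPM, Dlgap2 at 56.1 CPM and Dlgap3 at 232 CPM. Dlgap4 was at 180 CPM and Dlg4 at 450 CPM. No member was called in dHPC with or without that replicate.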

How the results depend on the processing

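No result changed direction while called in any setting. Of 2830 settings of single members, 2730 kept their side of the threshold, 56 lost and 44 gained a call. Most of these settings are of members not called in the main fits, and the total includes the region contrasts. It therefore says little on how stable the called ethanol results are. In 200 of the 2830 the fold change had the opposite sign to the main fit, 146 of them with a library left out. At the gene level the stricter filter and DESeq2's size factors changed no call, nor did keeping the incomplete library. Counts of called members moved as follows. In CTX acute (4 in the report) the count was 0 with all 4 groups in a fit, 2 with the GC and length trend removed, 2 with the replicate block and 0–4 leaving out a library. For isoforms there (18) it was 0 with all 4 groups and 4–22 leaving out a library, and 23 with the replicate block. For treatment groups the block pairs different mice that share only a number (correlations of their deviations -0.311 to 0.367), and it was fitted where at least 2 numbers were shared. In DS acute (2) all 4 groups gave 1. Where the report has 0, DESeq2 gave 1 member in vHPC acute, 3 in vHPC chronic, 5 for the vHPC interaction, 1 in VS acute and 1 in VS chronic, and no filter gave 1 for the CTX interaction, 3 in vHPC chronic, 6 for the vHPC interaction, 2 in DS chronic, 2 in VS acute and 1 in VS chronic. Leaving out a library gave 0–2 in vHPC chronic, 0–4 for the vHPC interaction, 0–2 in VS acute, 0–2 in VS chronic and 0–4 for DS against VS (3). For isoforms, DESeq2 gave 4 in vHPC acute, 19 in vHPC chronic, 55 for the vHPC interaction, 4 in DS chronic, 16 in VS acute and 4 in VS chronic, no filter gave 1 in CTX chronic, 26, 64, 17, 23 and 8 in vHPC chronic, the vHPC interaction, DS chronic, VS acute and VS chronic, and all 4 groups gave 11 in DS chronic and 0 in VS acute. Leaving out a library gave 0–21 in vHPC acute, 0–20 in vHPC chronic, 0–38 for the vHPC interaction, 0–20 in VS acute and 0–15 in VS chronic. The cause of these differences was not tested. With 3 libraries a group, and a saline group of 2 in DS chronic, intervals are wide in VS, for Dlgap3 -0.42 to 0.48 (acute) and -0.28 to 0.34 (chronic) on the log2 scale, so changes of that size can be missed.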
